A study of Mus musculus with 9 samples.

Results

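The clustered histone genes are the mouse genes whose symbols begin with Hist1h, Hist2h, Hist3h or Hist4h. They were chosen by that symbol alone and number 70 of the 54532 genes in the count table. They comprise 6 genes of the linker histone H1, 20 of H2A, 19 of H2B, 12 of H3 and 13 of H4. By symbol, the Hist1 cluster on chromosome 13 holds 56 of them, the Hist2 cluster on chromosome 3 holds 10, Hist3 on chromosome 11 holds 3, and Hist4h4 lies alone on chromosome 6. The pseudogene Hist1h2al is counted with Hist1 but lies apart from its other members, at chr13:51202727-51203065. The annotation gives 67 as protein coding and 3 as pseudogenes.

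Core histones H2A, H2B, H3 and H4 form the spool around which DNA is wound, and H1 binds where DNA enters and leaves it. Most clustered genes are transcribed in S phase, when newly copied DNA needs packaging, and their intron-poor mRNAs end just past a conserved stem-loop that is bound by the protein SLBP instead of carrying a poly(A) tail. Some of these genes are also known to make longer, polyadenylated mRNAs from a signal downstream, above all in cells that have stopped dividing.

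The RNA came from HC11 cells, an established mouse mammary epithelial line labelled as strain C57BL/6. Ctrl libraries came from untreated cells, while EpPT1 and EpPT2 libraries came from cells exposed to 660 nm light, with 3 libraries a group. The sample labels set EpPT1 at 10 J/cm2 and EpPT2 at 20 J/cm2, but in the protocol text the 10 mW laser delivered 0.5 or 1 J/cm2, and no dose is attached to a group here. The protocol text describes extraction of total RNA, and whether poly(A) RNA was selected for the libraries, the interval between exposure and lysis and the origin of the 3 libraries of a group were not given in the sources used here. P-values below therefore measure the spread between libraries, which may be technical.

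Total counts were 14549787 to 17228929 per library. The luminal keratin genes Krt8, Krt18 and Krt19 were well detected, with mean levels of 717, 881 and 434 TMM-scaled CPM, which are counts scaled to a common library size, and the endothelial markers Pecam1 and Cdh5 did not exceed 3.05 CPM in any library. The luminal cadherin Cdh1 was near 0 (0.226 to 0.775 CPM), while of the fibroblast markers Dcn reached 732 to 3283 CPM, Pdgfra 2.65 to 8.18 CPM and Col1a1 0.576 to 3.34 CPM. Mitochondrial genes took 6.06% to 7.49% of counts in 4 libraries (Ctrl 3, EpPT1 3, EpPT2 2 and EpPT2 3) and 2.74% to 3.62% in the other 5. The libraries EpPT2 2 and EpPT2 3 were the nearest pair within a group, with a mean chi-square per gene of 5.12 against 55.9 to 174 in the other 8 pairs within groups. They differed by more than sampling noise and were counted as separate libraries. Gene levels also followed GC content differently between libraries. The slope of log2(CPM + 1) per 10 percentage points of GC was -0.563 to -0.328 in Ctrl 1, Ctrl 2, Ctrl 3 and EpPT1 1, and 0.003 to 0.169 in the other 5.

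At least 1 count was present for 62 of the 70 clustered histone genes, at least 10 counts for 44 and at least 100 for 17, summed over the 9 libraries. Counts in all 9 libraries were found for 26 genes. Detection covered 6 of 6 H1 genes, 15 of 20 H2A genes, 18 of 19 H2B genes, 10 of 12 H3 genes and 13 of 13 H4 genes. A single library detected 32 to 52 of the genes.

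The 3′ end of the gene model is where the abundant members stand apart from the rest, so the stem-loops of the most abundant member of each histone type that has one are shown. The bases are from GENCODE release M21 (build GRCm38), 5′ to 3′ on the strand of the gene, with the 16-base stem-loop in capitals.
Hist1h1c (H1): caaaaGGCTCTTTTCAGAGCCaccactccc
Hist1h2ac (H2A): ccaaaGGCTCTTTTCAGAGCCcccactttt
Hist1h2be (H2B): ccaaaGGCTCTTTTCAGAGCCacccaacag
Hist2h3c2 (H3): acaaaGGCTCTTTTCAGAGCCaccacagct
Hist1h4i (H4): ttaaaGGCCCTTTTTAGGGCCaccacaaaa
These windows lie at chr13:23739507-23739536 (plus strand) for Hist1h1c, chr13:23683468-23683497 (minus strand) for Hist1h2ac, chr13:23585522-23585551 (minus strand) for Hist1h2be, chr3:96238476-96238505 (minus strand) for Hist2h3c2 and chr13:22040957-22040986 (minus strand) for Hist1h4i. All 5 lie in the 3′ UTR of the annotated mRNA.

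The pattern searched was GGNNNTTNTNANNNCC after the stop codon on the sense strand, with the outer 6 bases of each side able to pair. It was found in the gene models of 45 of the 70 members. Searched over the whole length of any transcript, it was found in 46 members and in 155 of 55450 annotated genes (0.28%), these members included. The form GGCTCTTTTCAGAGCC was carried by 25 members, namely 3 of H1, 10 of H2A, 7 of H2B and 5 of H3. No H4 gene carried it: 7 H4 genes held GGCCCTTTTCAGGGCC, and Hist1h4i, the most abundant H4 gene, shared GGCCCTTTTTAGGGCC with 1 other.

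Past the stem-loop, the models of the abundant members ran on. The model extended 840 bases beyond it for Hist1h1c, 1861 for Hist1h2be, 330 for Hist1h4i, 2010 for Hist1h2ac, 4884 for Hist1h1d, 2445 for Hist4h4 and 1643 for Hist3h2a. In several of these genes, and in Hist2h2be, the last 50 bases held a poly(A) signal, AATAAA or ATTAAA, shown in capitals in the last 30 bases of the model.
Hist1h1c: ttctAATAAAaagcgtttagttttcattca
Hist2h2be: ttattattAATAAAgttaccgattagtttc
Hist1h2be: tgtgttccttATTAAAgcattcctgattga
Hist1h4i: tctgtttacATTAAAagtattctatgctaa
These windows lie at chr13:23740338-23740367 (plus strand), chr3:96223709-96223738 (plus strand), chr13:23583670-23583699 (minus strand) and chr13:22040636-22040665 (minus strand), in the order printed. Hist2h2be, an H2B gene, has no stem-loop in its model and ends 2192 bases after the stop codon.

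**Figure D1:**
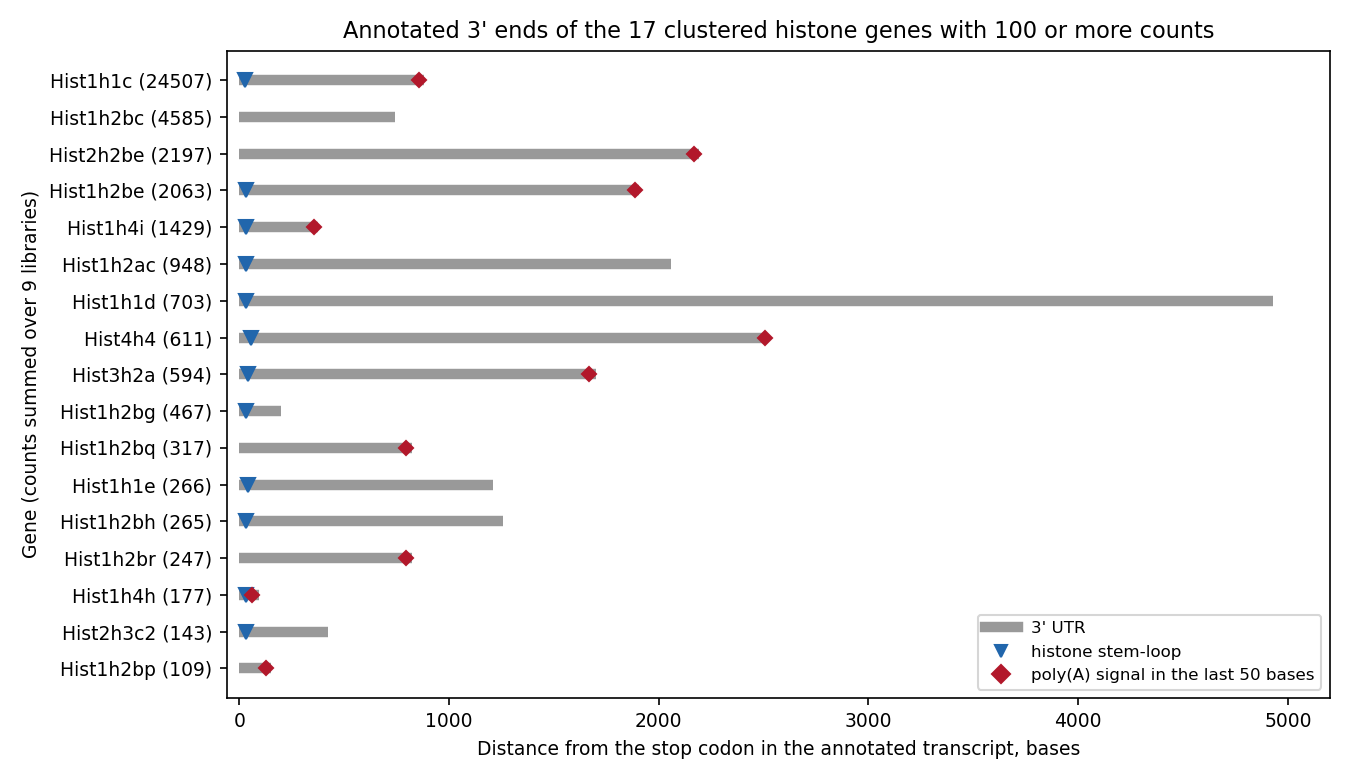
Horizontal axis, distance in bases from the stop codon in the annotated transcript; each bar is the 3′ UTR of 1 of the 17 clustered histone genes with 100 or more counts, ordered by counts summed over the 9 libraries (in brackets). Triangles mark the stem-loop and diamonds a poly(A) signal; Hist1h4h is the gene whose bar ends less than 100 bases past its stem-loop.

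The models fell into 4 kinds. A stem-loop followed by at least 100 further bases was present in 23 members, which held 32384 of the 40709 histone counts (79.6%). No stem-loop but a 3′ UTR of at least 100 bases was found in 5 members, all of them H2B genes (Hist1h2bc, Hist2h2be, Hist1h2bq, Hist1h2br and Hist1h2bp), which held 7455 counts (18.3%). For Hist1h2bp this holds for the transcript with the longest 3′ UTR, as the pattern was found when all its transcripts were searched. The 22 members whose model ended within 100 bases of the stem-loop held 563 counts (1.38%), and the 20 with neither feature held 307 (0.754%).

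Together, the 28 members with a long 3′ end held 97.9% of the histone counts, and the other 42 held 2.14%. Among the 28, 16 had at least 100 counts and 1 had none, against 1 and 7 among the 42. The 1, Hist2h3c1, and among the 7 Hist2h2aa1, Hist2h2aa2, Hist2h2bb and Hist2h3b lie wholly inside exons of another gene. Every 50-base stretch of these also occurs in another gene, so their lack of counts says nothing of the 3′ end. Longer models offer more bases to count, but the difference was also present per length: the median level was 0.897 CPM per kilobase with a long end and 0.128 without. GC content ranged over the members from 39.8% in Hist1h1d, with a long end, to 70.5% in Hist1h2aj, without one. Its part in the difference per length was not tested. The highest of the 42 was Hist1h4h at 2.71 CPM per kilobase, and the highest of the 28 was Hist1h1c at 113. A poly(A) signal was found in 17 members, with a median of 177 counts, against 11 in the other 53. Sharing of sequence moved with these classes. The median share of 50-base stretches that also occur in another gene was 24.6% for models extended past a stem-loop and 63.1% for models ending near it. It was 44.1% for models with a long 3′ UTR but no stem-loop, and 84.3% for models with neither feature. How far this sharing lowered counts was not tested. Counts per gene do not place reads within a transcript, so which 3′ end was used in these cells cannot be read from them.

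**Figure D2:**
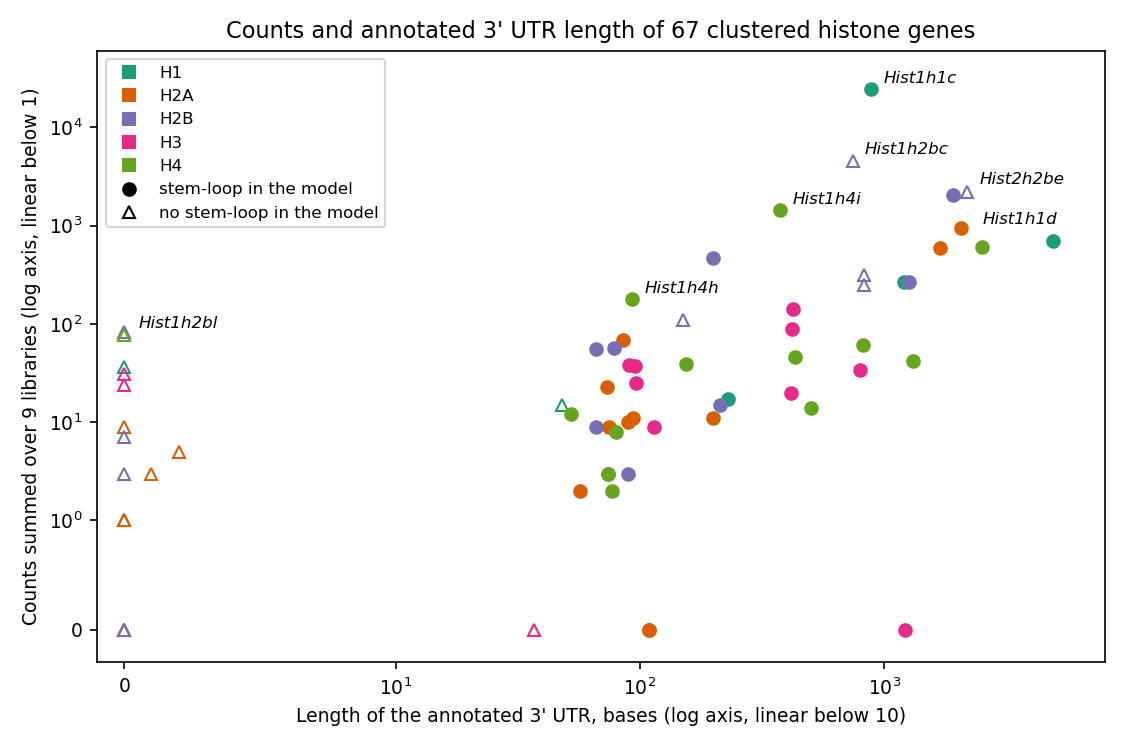
Horizontal axis, length of the annotated 3′ UTR in bases; vertical axis, counts summed over the 9 libraries (both axes logarithmic, linear near 0); each point is 1 of 67 protein-coding clustered histone genes, coloured by histone type, filled where the model holds a stem-loop. Genes above 200 counts lie at 3′ UTRs of 200 bases or more, and no model ending at the stop codon exceeds 83 counts.

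Other RNAs that lack a poly(A) tail were also scarce. Of 16 such RNAs in the table, among them the small nuclear RNA Rn7sk, telomerase RNA Terc and RNAs of Cajal bodies, 11 had no count in any library and 1, Rn7sk, was abundant enough to test, at 0.248 to 2.50 CPM. Among replication-independent histone variants, whose mRNAs are mostly polyadenylated, H3f3b, an H3 variant gene, averaged 1239 CPM, H2afz 283 and H1f0 208. The part of a poly(A) tail, or of its lack, in any of these levels was not tested.

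The 8 members with no count were Hist1h2aa, Hist1h2al, Hist1h2an, Hist2h2aa1, Hist2h2aa2, Hist2h2bb, Hist2h3b and Hist2h3c1. A count of 0 allows up to 3 counts in a library, or 0.174 to 0.206 CPM (counting error only). Of the 8, 5 lie wholly inside exons of another annotated gene, all in the Hist2 cluster, and 0 of the 62 members with counts do. Every 50-base stretch of these 5 also occurs in another gene. How shared reads were counted was not given in the sources used here, so the floor may not bound their level. All 20 H2A genes overlap a gene on the opposite strand. The strand setting of the authors' counter was not given in the sources used here, so reads of such pairs cannot be told apart. Of the testis histones in the clusters, Hist1h2aa was at 0, Hist1h2ba had 3 counts and Hist1h1t, the testis linker histone, had 17.

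Counts, here not divided by length, were concentrated in a few genes. Hist1h1c, a linker histone gene (chr13:23738808-23740367, plus strand), held 24507 of the 40709 counts (60.2%), and the 4 members with most counts held 81.9%. By type, H1 took 62.7% of histone counts, H2B 25.8%, H4 6.19%, H2A 4.18% and H3 1.11%, although H3 has 12 genes to the 6 of H1. The Hist1 cluster held 91.1%. As a share of each library, the clustered genes took from 0.0211% (EpPT2 1; Wilson 95% interval 0.0204% to 0.0218%) to 0.0398% (EpPT1 3; 0.0388% to 0.0409%).

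Per length, the order of the mean levels was Hist1h1c at 113 CPM per kilobase, Hist1h2bc at 28.4, Hist1h4i at 14.7, Hist2h2be at 5.94 and Hist1h2bg at 5.54. Hist1h1c was above Hist1h2bc in each of the 9 libraries, whereas Hist2h2be and Hist1h2bg lay within the spread of each other, as did Hist1h2bc and Hist1h4i, and Hist1h4i and Hist2h2be. In CPM, Hist1h1c stood at 111, 159 and 259 in the Ctrl libraries, 134, 153 and 256 in the EpPT1 libraries, and 130, 202 and 188 in the EpPT2 libraries, each in replicate order. The groups overlapped throughout, and the spread within each group exceeded any difference between them.

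Among H2B genes, Hist1h2bc had 28.7, 33.9 and 51.6 CPM in Ctrl libraries, 35.9, 24.9 and 29.1 in EpPT1 libraries and 23.2, 31.9 and 36.5 in EpPT2 libraries. Hist2h2be had 14.1, 19.5 and 13.9 CPM in Ctrl libraries, 18.5, 12.1 and 20.4 in EpPT1 libraries and 9.92, 15.7 and 16.0 in EpPT2 libraries. Both genes overlapped between all groups. Hist1h2be had 16.7, 19.4 and 21.4 CPM in Ctrl libraries, 21.5, 9.44 and 11.2 in EpPT1 libraries and 9.43, 11.1 and 11.1 in EpPT2 libraries. Its EpPT2 libraries all lay below its Ctrl libraries, while EpPT1 spanned both levels.

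The H4 gene Hist1h4i had 3.84, 4.36 and 18.8 CPM in Ctrl libraries, 4.44, 4.86 and 23.1 in EpPT1 libraries and 3.96, 16.7 and 16.1 in EpPT2 libraries. Its 9 values formed a low and a high cluster, and every group contained both. Hist4h4, the H4 gene on chromosome 6, had 3.78, 5.79 and 3.22 CPM in Ctrl libraries, 1.90, 3.22 and 13.0 in EpPT1 libraries and 2.13, 2.77 and 3.88 in EpPT2 libraries. Its value in EpPT1 3 lay apart from the other 8.

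The H2A gene Hist1h2ac had 7.25, 6.93 and 9.37 CPM in Ctrl libraries, 4.84, 6.33 and 10.5 in EpPT1 libraries and 3.53, 6.19 and 6.41 in EpPT2 libraries. Hist3h2a had 2.97, 5.14 and 8.62 CPM in Ctrl libraries, 4.90, 3.05 and 4.78 in EpPT1 libraries and 1.89, 4.41 and 2.75 in EpPT2 libraries. The other linker histone genes among the 12 highest were Hist1h1d at 2.92 to 6.75 CPM and Hist1h1e at 0.992 to 2.49 CPM over the 9 libraries. The remaining members of the 12, the H2B genes Hist1h2bg and Hist1h2bq, reached 0.992 to 6.59 and 0.346 to 3.95 CPM. Hist2h3c2, the H3 gene with most counts, averaged 1.00 CPM. It was one of 9 further members abundant enough to test, whose means lay between 0.491 and 1.87 CPM. The 41 members that were detected but too scarce to test held 763 counts in all (1.87% of histone counts), with a highest total of 61 for the H4 gene Hist1h4d.

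**Figure D3:**
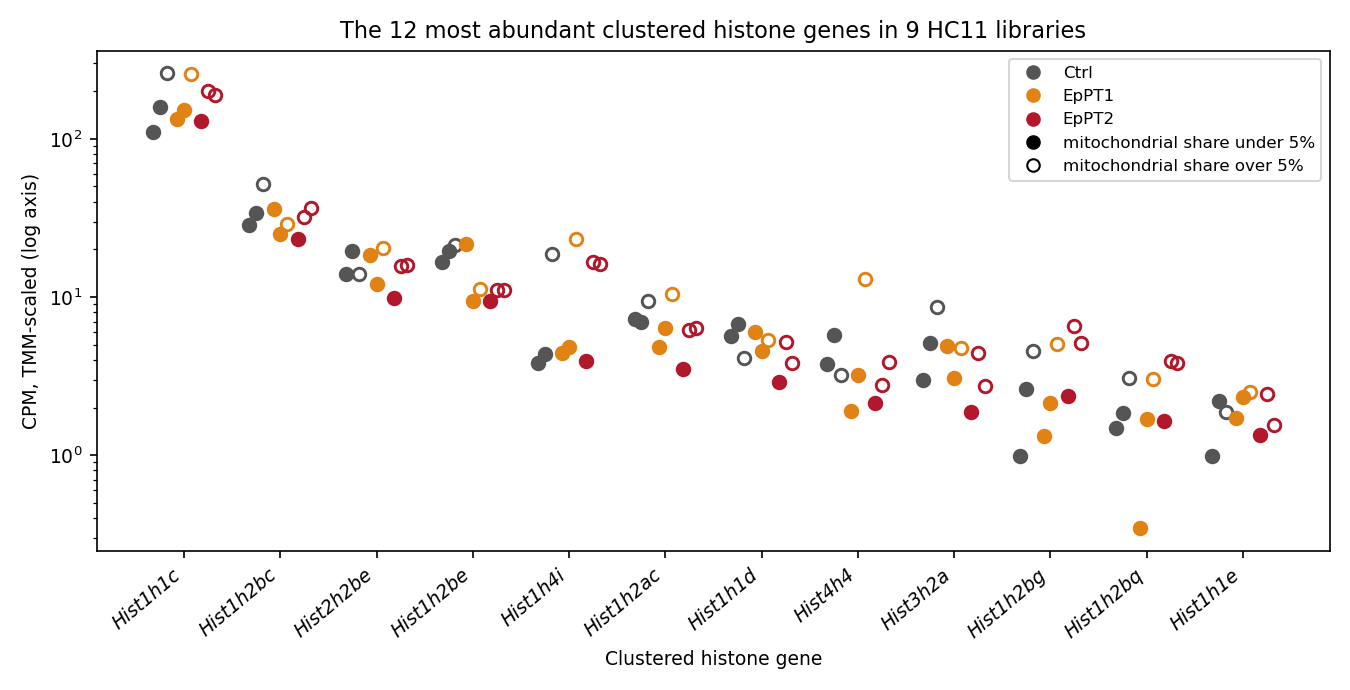
TMM-scaled CPM (log axis) of the 12 clustered histone genes with the highest mean, 1 point per library, coloured by group (Ctrl, EpPT1, EpPT2 from left to right); open points are the 4 libraries with over 5% mitochondrial counts. Hist1h1c lies between 111 and 259 CPM, and the open points of Hist1h4i lie at 16.1 to 23.1 CPM, apart from its filled points at 3.84 to 4.86 CPM.

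The low and high clusters of Hist1h4i coincided with the mitochondrial share. In the 4 libraries with over 5% mitochondrial counts it had 16.1 to 23.1 CPM, against 3.84 to 4.86 CPM in the other 5, a 4.07-fold ratio of medians. Hist1h1c had 188 to 259 CPM in those 4 libraries, against 111 to 159 in the other 5 (1.71-fold). Hist1h2bg, Hist1h2bq and Hist1h4h likewise lay wholly higher in the 4 libraries, with ratios of medians of 2.37, 2.09 and 1.37, so that 5 of the 21 members tested were separated upward and 0 downward. Over all 14471 genes tested, 16.5% were separated upward and 18.0% downward, so separation of this kind was common among all genes. The other H4 genes summed did not separate, at 7.20 to 18.4 CPM in the 4 libraries and 4.03 to 9.08 in the other 5. The summed clustered histone genes had 316 to 412 CPM in the 4 libraries and 203 to 279 CPM in the other 5. These libraries were divided by a measured share and not by treatment, so no test is given.

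The genes of DNA replication ran the other way. Of 30 S-phase genes tested, 25 lay wholly lower in the 4 libraries with a high mitochondrial share and 0 higher, with sums of 2132 to 2409 CPM in those 4 against 3652 to 4302 CPM in the other 5. Rrm1, a subunit of the enzyme that makes deoxynucleotides, had 185 to 215 CPM in the 4 libraries and 390 to 493 in the other 5. Of 17 histone chaperones, 11 were wholly lower, among them Nap1l1 at 320 to 405 against 497 to 702 CPM, and 1, Atrx, was wholly higher, at 308 to 365 against 185 to 306 CPM. Mcm2, Chaf1a and Chaf1b count in both of these lists. Of 23 factors of histone transcription and 3′ processing, 9 were wholly lower and 1, Upf1, which takes part in histone mRNA decay, wholly higher. Npat, the coactivator of clustered histone genes, had 20.5 to 35.8 CPM in the 4 libraries and 41.1 to 73.6 in the other 5, while Slbp overlapped, at 55.2 to 76.7 and 54.0 to 89.9 CPM. Markers of cell types also differed. The basal keratins Krt14 and Krt5 were wholly higher (summed 19.1 to 23.4 against 4.52 to 9.44 CPM). So was Cd68, a macrophage gene, at 87.3 to 102 against 8.49 to 45.1 CPM, while Ptprc, which marks blood cells, stayed at 0.761 CPM or below. Of the luminal markers, Epcam was wholly higher, at 37.9 to 44.8 against 17.6 to 34.6 CPM, while Krt8, Krt18, Krt19 and Cdh1 overlapped. The fibroblast markers each overlapped, with Dcn at 1809 to 3283 CPM in the 4 libraries and 732 to 2140 in the other 5, Pdgfra at 5.92 to 8.18 and 2.65 to 6.14, and Col1a1 at 1.35 to 3.24 and 0.576 to 3.34. The endothelial markers summed overlapped too (1.38 to 2.55 and 0.248 to 3.22 CPM). In bulk RNA, fewer cells of a type and less RNA per cell cannot be told apart, and the part of any of these in the histone levels was not tested.

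**Figure D4:**
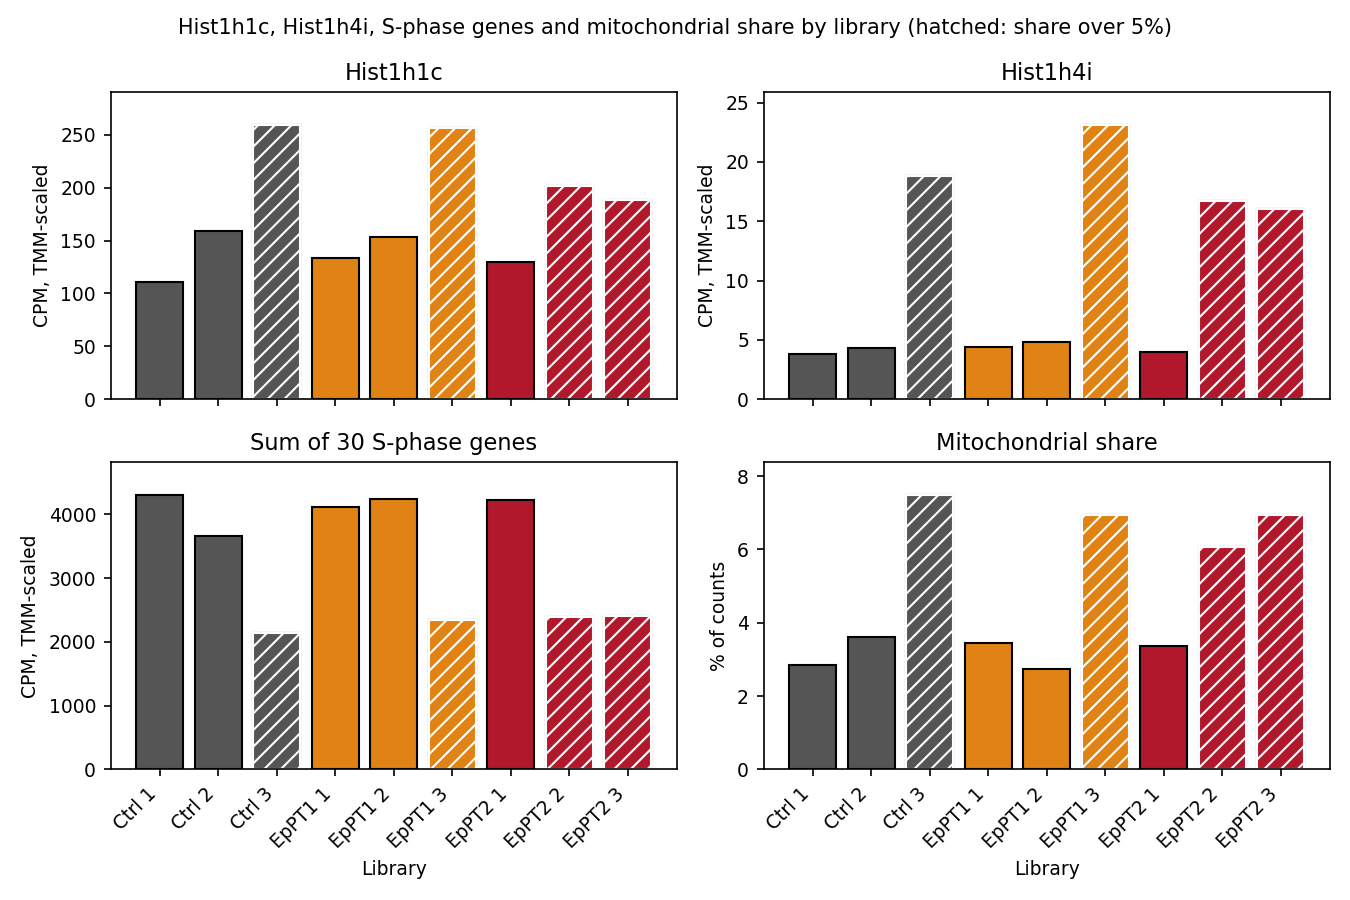
Bars give, for each of the 9 libraries, the TMM-scaled CPM of Hist1h1c, of Hist1h4i and of 30 S-phase genes summed, and the percentage of counts on mitochondrial genes; grey is Ctrl, orange EpPT1 and red EpPT2, and hatching marks libraries with over 5% mitochondrial counts. The hatched bars are higher for both histone genes (16.1 to 23.1 CPM for Hist1h4i) and lower for the S-phase sum (2132 to 2409 CPM).

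Of the 5 members separated in those libraries, the upstream sequence of Hist1h1c and Hist1h4i, the most abundant H1 and H4 genes, is given for comparison, as the 250 bases before the RefSeq gene start (GRCm38.p6), with CCAAT and TATAAA on the printed strand in capitals.
Hist1h1c: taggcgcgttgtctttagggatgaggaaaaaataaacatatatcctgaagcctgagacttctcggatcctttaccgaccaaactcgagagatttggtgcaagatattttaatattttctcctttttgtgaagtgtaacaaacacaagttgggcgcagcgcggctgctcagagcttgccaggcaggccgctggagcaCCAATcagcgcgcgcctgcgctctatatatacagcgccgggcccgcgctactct
Hist1h4i: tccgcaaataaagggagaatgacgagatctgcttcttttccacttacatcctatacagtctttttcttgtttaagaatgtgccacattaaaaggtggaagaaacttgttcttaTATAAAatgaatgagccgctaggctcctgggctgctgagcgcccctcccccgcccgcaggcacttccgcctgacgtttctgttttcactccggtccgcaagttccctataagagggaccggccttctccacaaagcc
They lie at chr13:23738557-23738806 (plus strand) and chr13:22041363-22041612 (minus strand). Hist1h1c has CCAAT and no TATAAA in this window, and Hist1h4i has TATAAA and no CCAAT. Only exact matches were marked, at any distance from the gene start. Near matches to TATAAA, such as ctatatatac in Hist1h1c and ctataagagg in Hist1h4i, were left unmarked.

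Over the whole set, RefSeq promoter windows (250 bases before to 50 after the start) matched 61 of the 70 members. CCAAT, read on both strands, was present in 52 of the 61 (85.2%), against 41.1% of 27025 genes. It was found in all 49 matched genes of H1, H2A, H2B and H3 and in 3 of 12 H4 genes. TATAAA was present in 35 (57.4%, against 15.7% of genes), and the octamer ATTTGCAT in 14 (23.0%, against 1.97%), of which 7 were H2A and 7 H2B genes. A match describes letters in a window and is not evidence of a bound factor.

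Light exposure was then compared with no exposure. The low-count filter left 21 of the 70 members for testing (3 of H1, 3 of H2A, 9 of H2B, 2 of H3 and 4 of H4), which hold 98.1% of histone counts. The 49 members below the filter were not tested. With edgeR's quasi-likelihood test and Benjamini-Hochberg adjustment over 14471 genes, 0 of the 21 passed an adjusted p of 0.05 in any of the 3 comparisons, where 0 of 14471 genes (0%) passed as well. DESeq2 called 0 members too, against 0.00693% of genes in EpPT1 against Ctrl, 0.476% in EpPT2 against Ctrl and 0% between the exposed groups. At an unadjusted p under 0.05, DESeq2 had 0, 2 and 0 members in those comparisons (5.09%, 14.9% and 0.263% of genes). Limma-voom called 0 members and 0 genes, with 0, 1 and 0 members at that unadjusted level (2.81%, 12.1% and 0.152% of genes). The EpPT1 and EpPT2 comparisons share their Ctrl libraries.

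In EpPT1 against Ctrl, 0 of the 21 members reached an unadjusted p under 0.05, against 3.93% of all genes tested. Log2 differences were above 0 in 12 of the 21 (48.0% of all genes), with a median of 0.06 against -0.02 for all genes. The H2A gene Hist1h2ao had 0.461, 0.735 and 0.692 CPM in EpPT1 and 0.372, 0.119 and 0.225 CPM in Ctrl. It was the only member whose groups did not overlap, where 2.73% of genes were wholly higher and 2.53% wholly lower. Its log2 fold change was 1.37 (SE 0.74, edgeR adjusted p = 0.991), and it rests on 2 to 13 counts a library. With the GC trend of each library removed it was 0.67. Of its 50-base stretches 93.5% occur in another gene, so its counts are uncertain.

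The next smallest p-values of that comparison were also far from the threshold. The H2B gene Hist1h2bl differed by 1.32 (SE 0.88), Hist1h2be by -0.45 (SE 0.33) and the H3 gene Hist2h3c2 by 0.69 (SE 0.52) on the log2 scale, each with an edgeR adjusted p of 0.991. Single libraries moved each of these values. Hist1h2bl was 2.42 without Ctrl replicate 2 and 0.78 without Ctrl replicate 3, and Hist1h2be was -0.90 without EpPT1 replicate 1 and -0.23 without EpPT1 replicate 2. Hist2h3c2 was 0.41 without EpPT1 replicate 2. With the GC trend removed, Hist1h2bl was 0.82 and Hist2h3c2 was 0.16. The differences of Hist1h1c and Hist1h4i were smaller than their errors. Hist1h1c averaged 181 ± 65.9 CPM in EpPT1 and 176 ± 75.7 CPM in Ctrl (SD, n = 3 each), which is 0.04 (SE 0.36) on the log2 scale. Hist1h4i averaged 10.8 ± 10.7 CPM in EpPT1 and 9.01 ± 8.50 CPM in Ctrl, a log2 difference of 0.26 (SE 0.83).

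In EpPT2 against Ctrl, 2 of the 21 members reached an unadjusted p under 0.05, against 12.2% of all genes, and neither passed adjustment. Log2 differences were above 0 in 11 of the 21 (47.9% of all genes), with a median of 0.07 against -0.03 for all genes. The H2B gene Hist1h2be averaged 10.5 ± 0.964 CPM in EpPT2 and 19.2 ± 2.33 CPM in Ctrl (SD, n = 3 each). That is a log2 fold change of -0.86 (SE 0.33, edgeR adjusted p = 0.376), with 3 of 3 EpPT2 libraries below each Ctrl library, among them the near pair EpPT2 2 and EpPT2 3. Its annotated exons share 496 bases with Hist1h1e, whose counts were 266 in all against 2063 for Hist1h2be.

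The other member was Hist1h2br, an H2B gene with 1.28, 2.70 and 4.65 CPM in EpPT2 and 0.744, 0.657 and 1.50 CPM in Ctrl. Its groups overlapped, and its log2 fold change was 1.57 (SE 0.66, edgeR adjusted p = 0.388). It was 1.04 without EpPT2 replicate 3 and 0.88 in the 5 libraries with a low mitochondrial share, where EpPT2 1 is the only EpPT2 library. Hist1h2br is nearly a copy of Hist1h2bq: 88.7% of its 50-base stretches and 97.3% of those of Hist1h2bq occur in another gene, and both models end in the same 30 bases, shown with the poly(A) signal in capitals.
Hist1h2br: ttaAATAAAtttgtttcttctcctgcctcc
Hist1h2bq: ttaAATAAAtttgtttcttctcctgcctcc
They lie at chr13:21836636-21836665 (plus strand) and chr13:21807277-21807306 (minus strand). The authors' counting could have divided reads between the pair either way. Summed, they had 2.92, 6.65 and 8.46 CPM in EpPT2 and 2.23, 2.51 and 4.57 CPM in Ctrl, with overlapping groups.

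Further members of that comparison did not pass either. Hist3h2a differed by -0.88 (SE 0.48, edgeR adjusted p = 0.456) and Hist1h2ao by 1.31 (SE 0.74, edgeR adjusted p = 0.469). In the 5 libraries with a low mitochondrial share, the difference of Hist1h2ao was -0.39. Only 1 of those, EpPT2 1, is an EpPT2 library, and it had 3 counts of Hist1h2ao. With the GC trend removed, the difference of Hist1h2ao was 0.19. Hist3h2a was at -0.43 without Ctrl replicate 3. Groups did not overlap for 3 members, with Hist1h2be and Hist1h2ac lower in EpPT2 (10.9% of all genes) and Hist2h3c2 higher (12.3%). Hist1h2ac averaged 5.38 ± 1.61 CPM in EpPT2 and 7.85 ± 1.33 in Ctrl, and Hist2h3c2 averaged 1.17 ± 0.169 CPM in EpPT2 and 0.696 ± 0.253 in Ctrl (SD, n = 3 each). Hist1h1c averaged 173 ± 38.3 CPM in EpPT2 and 176 ± 75.7 in Ctrl, a log2 difference of -0.03 (SE 0.36). Of the 3 EpPT2 libraries, 2 have a high mitochondrial share, against 1 of 3 in Ctrl.

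Between the exposed groups, 0 of the 21 members reached an unadjusted p under 0.05 in EpPT2 against EpPT1, against 0.214% of all genes. Log2 differences were above 0 in 9 of the 21 (48.3% of all genes), with a median of -0.05 against -0.01 for all genes. No member had groups that did not overlap, where 1.26% of genes were wholly higher and 1.20% wholly lower. The H4 gene Hist4h4 averaged 2.92 ± 0.884 CPM in EpPT2 and 6.05 ± 6.07 CPM in EpPT1 (SD, n = 3 each). The log2 difference was -1.04 (SE 0.65, edgeR adjusted p = 1). This rests on EpPT1 replicate 3, without which the log2 difference was 0.19. Hist1h2br, Hist1h2bq and Hist1h2be differed by 0.85 (SE 0.64), 0.89 (SE 0.69) and -0.41 (SE 0.33). Without EpPT1 replicate 1 these differences were 0.50, 0.41 and 0.036. Without EpPT1 replicate 3, Hist1h2br was 1.36 and Hist1h2bq 1.60, without EpPT2 replicate 3 Hist1h2br was 0.32, and without EpPT1 replicate 2 Hist1h2be was -0.64.

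**Figure D5:**
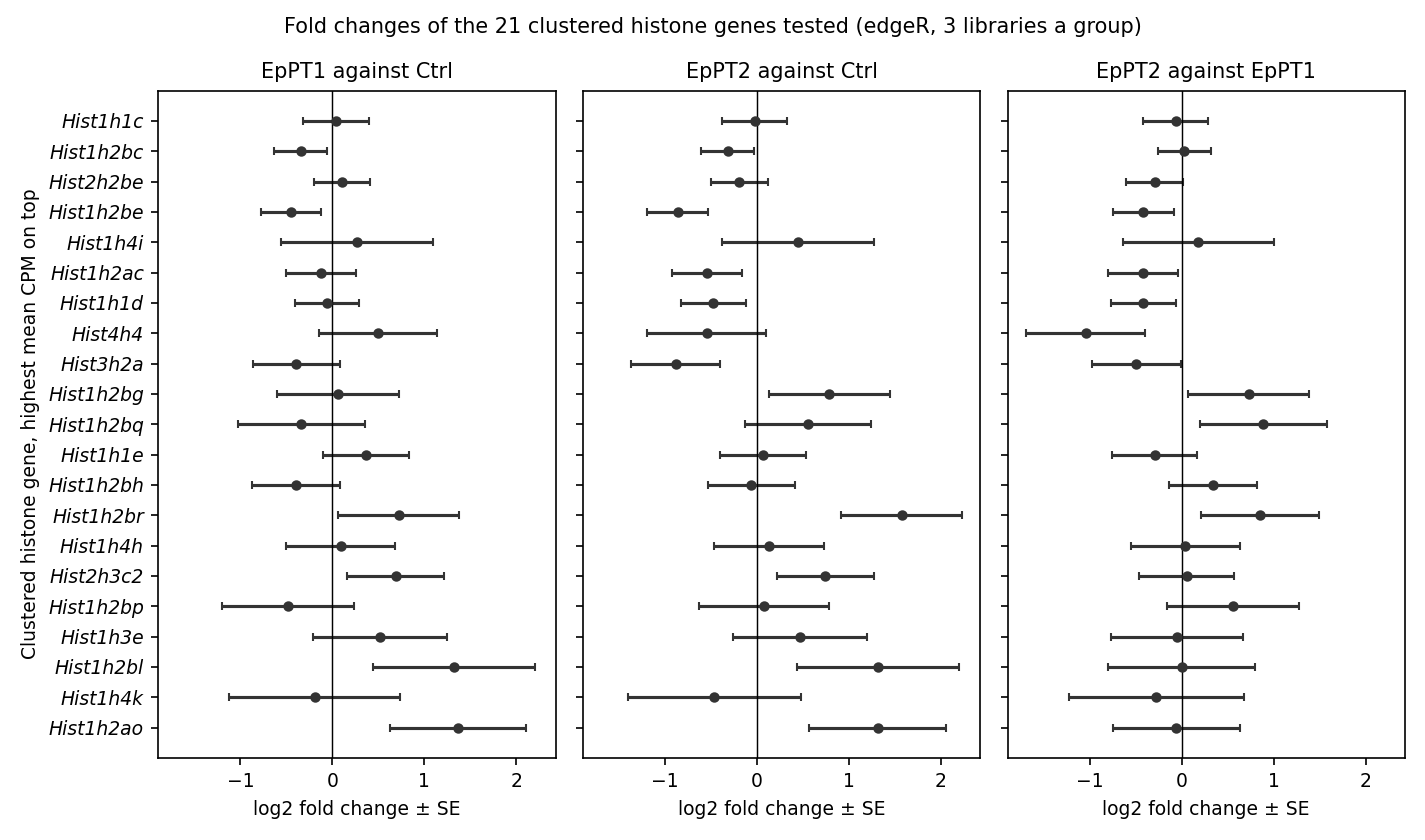
Log2 fold change with its standard error (edgeR, 3 libraries a group) for the 21 clustered histone genes tested, with EpPT1 against Ctrl on the left, EpPT2 against Ctrl in the middle and EpPT2 against EpPT1 on the right; genes run from the highest mean CPM (Hist1h1c, top) to the lowest (Hist1h2ao, bottom). Standard errors are widest among scarce genes and for Hist1h4i, and none of the 21 passed an adjusted p of 0.05 in any panel.

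As a sum, the clustered genes reached 299 ± 104 CPM in Ctrl, 297 ± 92.8 in EpPT1 and 283 ± 69.4 in EpPT2 (SD, n = 3 each), so the groups differed by less than the spread within each. Without Hist1h1c the sums were 123 ± 28.4, 116 ± 29.6 and 109 ± 31.4 CPM in Ctrl, EpPT1 and EpPT2.

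The partners of the clustered genes were examined by lists of textbook members, and edgeR called 0 genes of these lists in any comparison. Of 10 replication-independent histone variants tested, 3 reached an unadjusted p under 0.05, all higher, both in EpPT1 and in EpPT2 against Ctrl: the DNA-damage variant H2afx, H2afj and the linker variant H1fx. Of all genes tested, 3.93% in EpPT1 and 12.2% in EpPT2 against Ctrl reached that level. H2afx averaged 99.6 ± 61.4 CPM in EpPT1 and 42.9 ± 4.98 CPM in Ctrl (SD, n = 3 each; log2 1.21, SE 0.47, edgeR adjusted p = 0.991). In EpPT2 it averaged 120 ± 27.2 CPM, against 42.9 ± 4.98 CPM in Ctrl (log2 1.48, SE 0.47, edgeR adjusted p = 0.376). These 3 genes moved with the GC slope. EpPT1 1, the exposed library with a slope in the range of Ctrl, had 29.7 CPM of H2afx, 36.9 of H2afj and 7.32 of H1fx. The Ctrl means were 42.9, 39.4 and 9.71 CPM. All other exposed libraries had slopes above those of Ctrl, so GC slope and exposure can hardly be told apart. Without EpPT1 replicate 1, the log2 differences in EpPT1 against Ctrl were 1.64 for H2afx, 1.21 for H2afj and 1.52 for H1fx. With the GC trend removed, an alternative applied to the genes of these lists after seeing the data, the log2 differences in EpPT1 against Ctrl were 0.43 for H2afx, 0.67 for H2afj and -0.12 for H1fx. In EpPT2 against Ctrl they were 0.55, 0.83 and -0.021, so the direction of H1fx changed in both. Of 23 factors of histone transcription and 3′ processing, 0 reached that level in EpPT1 against Ctrl and 5 in EpPT2 against Ctrl, with 4 higher (Coil, Cpsf1, Sympk and Cdk9) and 1 lower (Npat, 28.2 ± 11.6 CPM in EpPT2 and 55.6 ± 19.0 in Ctrl). With the GC trend removed, Cpsf1 differed by 0.16 in place of 0.62 on the log2 scale in that comparison, Sympk by 0.11 in place of 0.53 and Npat by -0.54 in place of -0.98. Coil was at 1.19 and Cdk9 at 0.50 after that step, against 1.24 and 0.50 before it. Npat is one of the genes that was also lower in the libraries with a high mitochondrial share, and the part of that share in its difference was not tested. Among S-phase genes, 0 of 30 reached that level in EpPT1 and 1 of 30 in EpPT2 against Ctrl (E2f1, an S-phase transcription factor, log2 0.68, SE 0.26, and 0.083 with the GC trend removed), and among histone chaperones 0 of 17 did in both. Rn7sk differed by 1.50 on the log2 scale in EpPT2 against Ctrl (SE 0.66, edgeR adjusted p = 0.405), and by 0.99 with the GC trend removed. In EpPT2 against EpPT1 none of these lists had a gene at that level, which 0.214% of all genes reached. Slbp averaged 72.2 ± 10.3 CPM in Ctrl, 69.3 ± 18.3 in EpPT1 and 56.4 ± 2.60 in EpPT2 (SD, n = 3 each).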

How the data were processed

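RNA-seq libraries of HC11 cells were analysed from the raw count per gene that the authors deposited, in 1 table with a column per library. The aligner was Bowtie 0.12.2 and the build mm8, per the submitters' processing notes, but the coordinates in the table equal those of GENCODE M21 (GRCm38) for 53499 of 54409 genes and for all 70 histone genes, so GRCm38 is used here. The counter, its strand setting and its handling of reads shared between genes were not given in the sources used here. Depths of 14549787 to 17228929 counts set the precision, and intervals and floors cover counting error only.

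In R 4.3.3, edgeR 4.0.16 was fitted to the 9 libraries without a block (TMM scaling, filterByExpr, quasi-likelihood test, two-sided, Benjamini-Hochberg adjustment over 14471 genes, threshold 0.05, 6 residual degrees of freedom), after being tested on simulated data. CPM are TMM-scaled, and CPM per kilobase uses the gene length in the authors' table. DESeq2 1.42.0 and limma-voom (limma 3.58.1) were alternatives. Stem-loops were sought in the transcript with the longest 3′ UTR, poly(A) signals in its last 50 bases and sharing by 50-base stretches. Levels are given for the 12 members with the highest mean CPM, and fold changes for the 4 with the smallest p in a comparison; Hist1h1c, Hist1h4i and members whose groups did not overlap were added after their values were seen. The histone genes and lists were chosen with earlier results of these data known.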

Additional observations from a re-analysis of the deposited data

How the results depend on the processing

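Of the 19 alternatives, 1 was chosen after seeing the data, the 5 libraries with a low mitochondrial share. It holds a single EpPT2 library, EpPT2 1, so only effect sizes are taken from it. The others were DESeq2 size factors, no filter, at least 5 CPM in 3 libraries, the DESeq2 test, limma-voom and the replicate block. They also included only the 6 libraries compared, the mitochondrial share as a covariate, a GC trend removed and each library left out. Under these others, the number of clustered histone genes called was 0 in each of the 3 comparisons, and leaving out 1 library gave 0 to 0. Without a filter 62 members were tested and 0 called, against 32 of all genes in EpPT1 against Ctrl, 268 in EpPT2 against Ctrl and 2 between the exposed groups. At 5 CPM, 7 members were tested. Of 216 alternative values of the 12 named fold changes, 3 changed sign: Hist1h2ao in EpPT2 against Ctrl was -0.39 in the 5 libraries with a low mitochondrial share, Hist4h4 in EpPT2 against EpPT1 was 0.19 without EpPT1 replicate 3 (range over libraries left out -1.47 to 0.19), and Hist1h2be in EpPT2 against EpPT1 was 0.036 without EpPT1 replicate 1 (range -0.64 to 0.036); the cause was not tested. With the GC trend removed, Hist1h2ao was 0.19 in EpPT2 against Ctrl and Hist2h3c2 0.16 in EpPT1 against Ctrl. The median over the members tested ranged from -0.30 to 0.25, -0.28 to 0.23 and -0.38 to 0.10 over the alternatives in those 3 comparisons, so its sign is not stable. The labels state no pairing by replicate number. Correlations of same-numbered libraries were 0.627 to 0.729 for replicate 3, and lay between -0.636 and 0.732 for replicates 1 and 2. Whether the numbers pair the libraries cannot be told from this. With the replicate block 0 members were called, the lowest edgeR adjusted p being 0.756, 0.138 and 1. A minimum extension of 50 or 200 bases in place of 100, also chosen after seeing the data, gave 31 or 22 members with a long 3′ end, holding 98.0% or 96.2% of counts. The 26 members under 10 counts were not among the 21 tested.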
